A study of Mus musculus with 6 samples.

Results

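The 35 genes described here encode the machinery that turns glucose into lactate and the machinery that answers to low oxygen. They were chosen by symbol, and all 35 were found in the deposited table of 21988 gene symbols. RNA had been sequenced from mouse embryonic fibroblasts (MEFs), primary cells cultured from C57BL/6 embryos in serum-containing medium under CO2, at a cumulative population doubling (PD) of 2, 8 or 14. The labels name no genetic change and no added agent, so the groups share strain, cell type and culture and differ in how far the cells had been passaged. Each of the 3 groups had 2 libraries. One was made after ribosomal RNA had been removed (rRNA-depleted, replicate 1) and the other after poly(A) enrichment (replicate 2), so replicate number and library method cannot be told apart. Nothing in the labels says that the libraries came from separate cultures or embryos. Library method was fitted as a term of its own, so p-values rest on how far the changes with passage differ between the 2 methods. That spread may be technical, and whether it holds any spread between cultures is not known. The oxygen level of the cultures is not given in the sources used here.

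Levels are given in transcripts per 1000000 (TPM), which are scaled for transcript length. Levels of different genes are set side by side within a library only, because such ratios depended on the method. The ratio of Ldha to Ldhb at PD2 was 8.00 with rRNA depletion and 19.4 with poly(A) enrichment. Genes reaching 1 TPM in 2 or more libraries were tested, 13332 in all, and the 35 were among them. Runs of 3 values are in the order PD2, PD8, PD14. In bulk RNA, fewer cells of a type and less RNA per cell cannot be told apart. Read numbers are not in the table, so depth is unknown and no counting error can be given. TPM summed to 1000000 in each poly(A) library and to between 937217 and 950531 with rRNA depletion. The fibroblast label was checked on 13 marker genes such as Col1a1, Pdgfra and Thy1, whose TPM summed to between 15858 and 31293 per library. Markers of other cell types were unevenly present. Epcam of epithelium, Pecam1 of endothelium, Myod1 of muscle and Snap25 of neurons were below 1 TPM in every library, but some others stood well above that at PD2. There Krt19 of epithelium reached 28.5 TPM, Erg of endothelium 16.2, Des and Acta1 of muscle 48.5 and 48.9 and Gap43 of neurons 88.7 in 1 of the libraries. Stmn2 and Tubb3 of neurons were higher at PD14 than at PD2 with poly(A) enrichment (11.2 to 27.0 and 82.6 to 91.4 TPM). Tek of endothelium was higher at PD14 with rRNA depletion (2.75 to 6.29 TPM), and each of these was lower in the other method. The 8 epithelial markers summed to 22.1, 10.1 and 5.21 TPM with rRNA depletion and 39.4, 8.57 and 2.58 TPM with poly(A) enrichment, and 2 of the 3 tested fell. The 12 macrophage markers summed to 161, 29.5 and 38.1 TPM with rRNA depletion but to 426, 740 and 694 TPM with poly(A) enrichment, so the sum at PD14 lay below PD2 in the former and above it in the latter. Lyz2 made up most of the poly(A) sums, at 337, 621 and 569 TPM. C1qa, C1qb and C1qc, 3 of the 12, were lower at PD14 than at PD2 in both methods. The 8 cartilage and bone markers summed to 183, 471 and 733 TPM and to 21.5, 27.3 and 24.0 TPM. All 10 genes of a list of division markers fell from PD2 to PD14, and the part of these markers in the members' values was not tested.

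Glycolysis splits glucose into pyruvate in the cytosol and yields ATP without oxygen. Lactate dehydrogenase then turns pyruvate into lactate, which leaves the cell through a monocarboxylate transporter, while pyruvate dehydrogenase sends pyruvate to the mitochondria. Hypoxia-inducible factors (HIFs) are transcription factors whose alpha subunit is hydroxylated by oxygen-dependent prolyl hydroxylases and then destroyed. When oxygen is short the subunit persists, and it raises many glycolytic genes together with genes of pH control, mitophagy and collagen processing. HIF activity is set largely at the protein level, which RNA does not measure.

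Over the whole span, PD14 against PD2, 2 of the 35 genes rose and 1 fell. Epas1, which encodes a HIF alpha subunit, and P4ha2, a collagen prolyl hydroxylase subunit, rose, and Gapdh, the glycolytic enzyme that oxidises glyceraldehyde phosphate, fell. These 3 are 8.57% of the members, where 11.2% of all genes tested passed (6.41% higher and 4.77% lower), so the share called was no higher than the background (limma moderated test on log2(TPM + 1), Benjamini-Hochberg adjusted p under 0.05, two-sided). The other 32 did not pass. At an unadjusted p under 0.05, 15 members (8 higher, 7 lower) and 32% of all genes passed. Within both library methods 14 members were higher at PD14 (38.8% of all genes) and 12 lower (30.8%), and 9 had opposite signs. Both PD14 libraries lay above both PD2 libraries for 9 members (22.4% of all genes) and below them for 3 (15.8%). By groups, the 17 genes of the enzymes from hexokinase to lactate dehydrogenase had a median log2 change of -0.36, the 9 hypoxia response targets one of 0.45, and all genes tested one of 0.06. The groups were made by role, so Egln3 (-0.89) and glycolytic genes that HIF also raises were not among the 9 targets. The members as a whole had a median of 0.07. All 3 calls were lost without the replicate block, where 0 of all 13332 genes passed in limma, and without a filter on low values. Leaving out the poly(A) library of PD2 ended the call of P4ha2 (limma adjusted p = 0.0512). All 3 were also lost when any of the libraries of PD8 or PD14 was left out, which left at most 25 genes called in all.

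**Figure D1:**
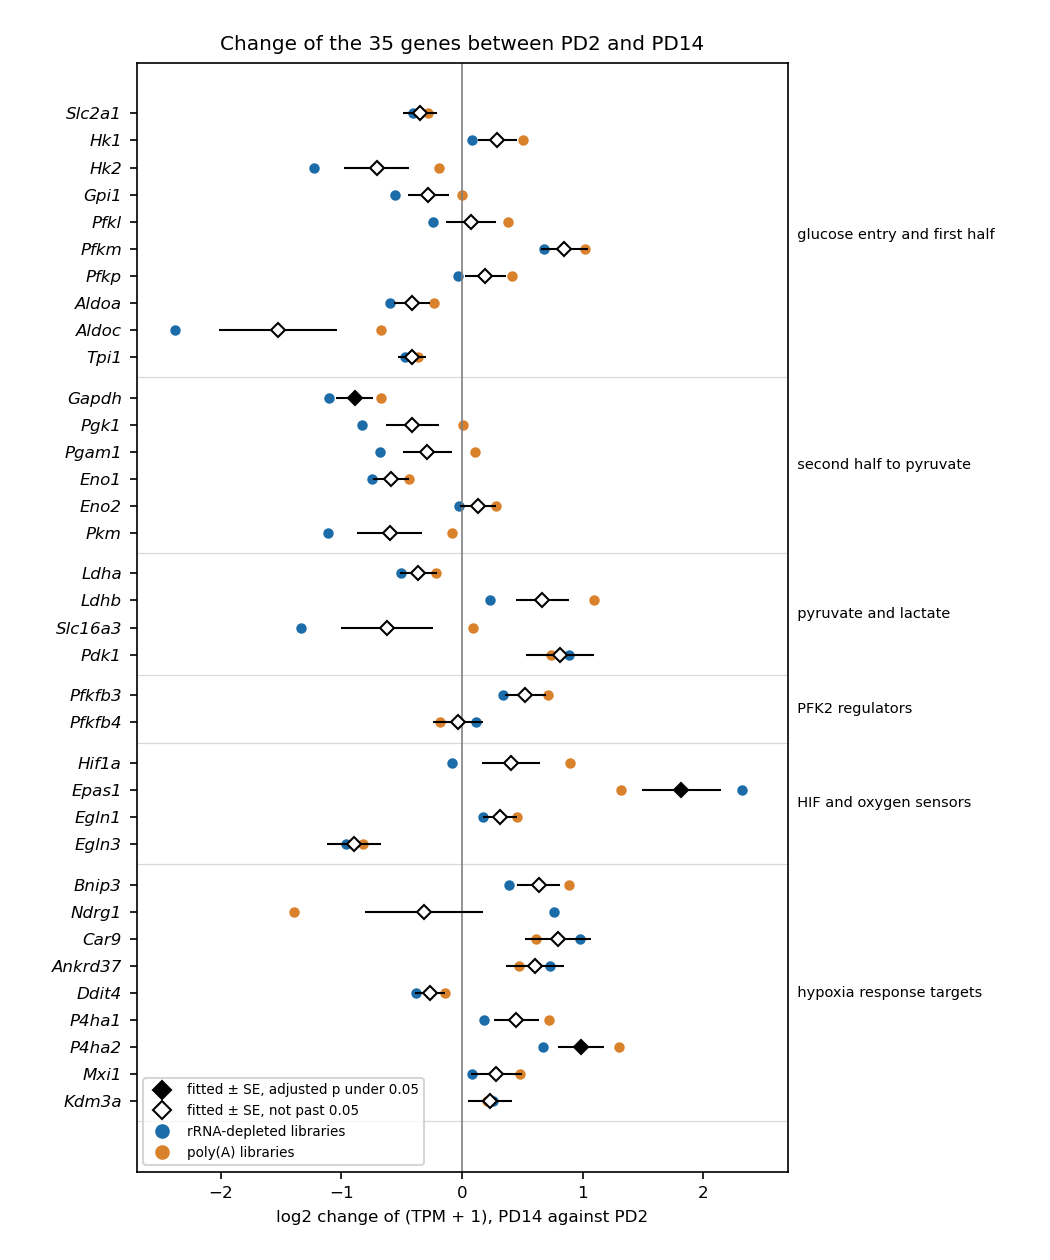
Log2 change of (TPM + 1) from PD2 to PD14 for the 35 genes, ordered by role. Diamonds are the fitted change with its standard error over 2 libraries per group, filled where the adjusted p is under 0.05, and circles are the difference within each library method. Gapdh (-0.89), Epas1 (1.82) and P4ha2 (0.99) carry the filled diamonds, and the circles of Ndrg1 lie far apart on either side of 0.

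Promoter sequence was available for 33 of the 35 genes, as 50 entries of the RefSeq promoter table on GRCm38.p6, the assembly that mm10 names. The HIF binding core was searched as ACGTG or GCGTG on both strands in the 250 bases before each start, and overlapping matches were counted once. ACGTG is also part of the E-box CACGTG, which other factors bind. A core was found in 39 of the 50 member entries (78.0%), in 54.7% of the entries of genes tested and in 38.6% of all entries. Their median GC contents were 61.0%, 59.6% and 52.4%. ACGTG itself was found in 48.0% of member entries and 21.0% of those of genes tested. A match is a run of letters and not a measured binding site.

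Stretches before an annotated start of 4 members are shown because 2 belong to genes that passed and 2 to genes of the same pathways that did not, and all 4 hold the core. They are written 5′ to 3′ along the gene, with each core or its reverse complement in capitals. P4ha2 (chr11:54100774-54100923, plus strand) and Bnip3 (chr7:138909520-138909656, minus strand) are hypoxia response targets. Gapdh (chr6:125165774-125165923, minus strand) and Ldha (chr7:46845654-46845803, plus strand) are glycolytic. Each stretch lies before the start of 1 RefSeq entry. Those of P4ha2, Gapdh and Ldha lie within the GENCODE span of the gene, downstream of the start of another annotated transcript, and overlap no annotated exon. The Bnip3 stretch lies before the span and was shortened to leave out bases annotated as exon.
P4ha2: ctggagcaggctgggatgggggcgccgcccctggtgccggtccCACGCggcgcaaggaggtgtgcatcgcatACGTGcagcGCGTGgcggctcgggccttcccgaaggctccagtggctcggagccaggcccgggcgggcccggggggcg
Bnip3: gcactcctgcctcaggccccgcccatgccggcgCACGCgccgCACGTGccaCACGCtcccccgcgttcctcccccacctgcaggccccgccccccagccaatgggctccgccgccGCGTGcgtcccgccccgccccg
Gapdh: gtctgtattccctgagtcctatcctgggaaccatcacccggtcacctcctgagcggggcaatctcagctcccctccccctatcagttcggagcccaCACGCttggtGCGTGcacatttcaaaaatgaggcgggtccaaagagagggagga
Ldha: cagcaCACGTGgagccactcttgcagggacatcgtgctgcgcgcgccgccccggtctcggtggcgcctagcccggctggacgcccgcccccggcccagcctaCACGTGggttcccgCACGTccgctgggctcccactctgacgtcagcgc
The capitals number 3 in P4ha2, 4 in Bnip3, 2 in Gapdh and 3 in Ldha. P4ha2 rose and Gapdh fell. The 4 were picked by passing or not and for holding the core, so they cannot link the core to a direction. Epas1, which also passed, had no entry in the promoter table.

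The glycolytic enzymes made up a smaller share of the RNA at PD14 than at PD2 in both library methods, by unequal amounts. The 17 genes summed to 5112, 4160.5 and 3055 TPM with rRNA depletion, or 0.545%, 0.438% and 0.326% of the table. With poly(A) enrichment they summed to 9266, 9253 and 8219 TPM, or 0.927%, 0.925% and 0.822%. Withwith rRNA depletion 14 of the 17 were lower at PD14 than at PD2, against 45.8% of all genes tested, with a median of -0.56. Withwith poly(A) enrichment 9 of the 17 were lower, against 46.0% of all genes, with a median of 0.00. The median over all genes was 0.06 in each method. The median change of the macrophage markers also differed by method, at -1.25 and 0.35, and their part in the enzyme values was not tested. Each comparison within a method has 1 library per group and no test.

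**Figure D2:**
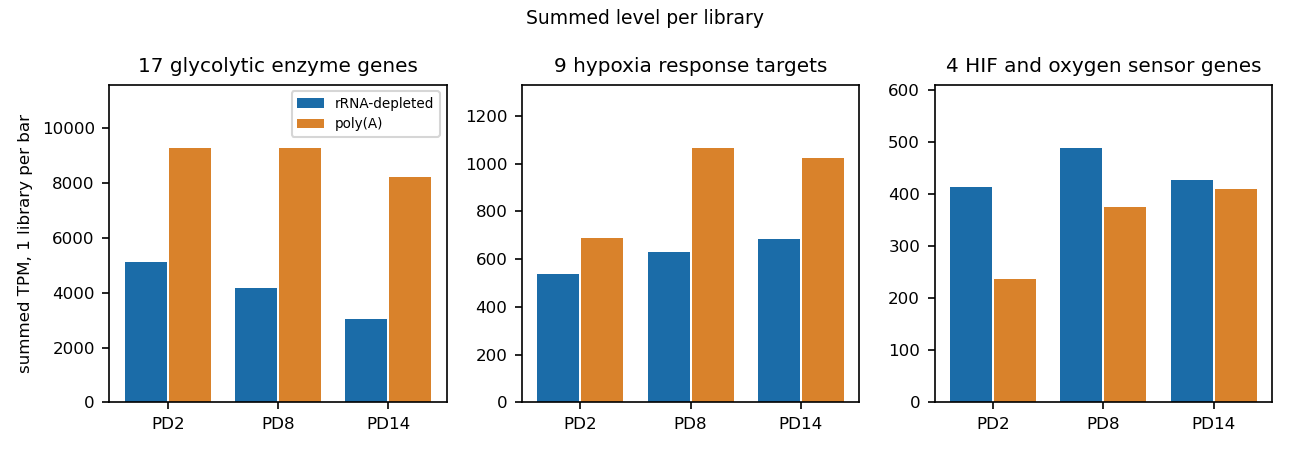
Summed TPM of 3 groups of members in each library, by population doubling and library method, with 1 library per bar. The glycolytic enzymes go from 5112 to 3055 TPM with rRNA depletion and from 9266 to 8219 TPM with poly(A) enrichment. The sum of the hypoxia response targets is higher at PD14 than at PD2 in both. With poly(A) enrichment most of that difference lies in P4ha1 (195 to 322 TPM) and P4ha2 (130 to 322 TPM), and 2 of the 9, Ndrg1 and Ddit4, were lower.

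Glucose enters fibroblasts mainly through the transporter of Slc2a1, whose TPM were 61.8, 56.1 and 46.3 with rRNA depletion and 137, 105 and 113 with poly(A) enrichment. The groups overlapped and the fitted change from PD2 to PD14 was -0.35 ± 0.14 (SE, n = 2 libraries per group; limma adjusted p = 0.164). Hexokinases trap glucose as a phosphate. Hk2, the inducible hexokinase that binds mitochondria, had 35.8, 24.0 and 14.7 TPM with rRNA depletion and 31.8, 26.7 and 27.7 TPM with poly(A) enrichment. Both PD14 libraries of Hk2 lay below both PD2 libraries, but the change of -0.71 ± 0.27 did not pass (limma adjusted p = 0.149). Hk1, the widely expressed form, lay above its PD2 levels in both PD14 libraries, at 61.2 and 73.5 TPM against 57.7 and 51.6 TPM (0.29 ± 0.16; limma adjusted p = 0.276). Hk2 thus took 38.3%, 29.0% and 19.4% of the summed TPM of Hk1 and Hk2 with rRNA depletion, and 38.1%, 26.6% and 27.3% with poly(A) enrichment.

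Phosphofructokinase carries out the committed step of glycolysis and is built from muscle, liver and platelet subunits. The muscle subunit Pfkm had 28.5, 35.7 and 46.2 TPM with rRNA depletion and 23.1, 46.7 and 47.8 TPM with poly(A) enrichment. Both PD14 values were above both PD2 values, and the change of 0.85 ± 0.20 missed the threshold (limma adjusted p = 0.0540). Pfkm shares 341 exon bases with a long noncoding gene on the same strand and 18 with Senp1 on the other strand, so its values may hold reads of those genes. The liver subunit Pfkl and the platelet subunit Pfkp were at 0.07 ± 0.21 and 0.19 ± 0.17, with overlapping groups. The share of Pfkm in the TPM of the 3 subunits was 24.5%, 32.4% and 37.2% with rRNA depletion and 17.4%, 24.3% and 24.8% with poly(A) enrichment, higher at PD14 than at PD2 in both. Pfkl kept the largest share in each of the 6 libraries, from 40.3% to 61.3%.

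Aldolase cuts the phosphorylated sugar in 2 pieces. Aldoa, the form abundant in most tissues, had 562, 477 and 371 TPM with rRNA depletion and 1049.6, 965 and 895 TPM with poly(A) enrichment, lower at each later doubling within each method (-0.41 ± 0.15; limma adjusted p = 0.132). Aldoc, the form best known from brain, had 5.74, 1.003 and 0.293 TPM and 3.37, 3.15 and 1.75 TPM in the respective methods. Its groups did not overlap, yet its change of -1.53 ± 0.49, the most negative among the members, did not pass (limma adjusted p = 0.105). Its change was -2.38 with rRNA depletion and -0.67 with poly(A) enrichment. Over the alternative settings in which it was tested and the left-out libraries it ranged from -2.4 to -0.678. Beside it, the summed TPM of 8 neural and glial markers were 99.4, 32.8 and 26.4 with rRNA depletion and 229, 165 and 159 with poly(A) enrichment. Of the 6 of them tested, 2 fell, and their part in the Aldoc values was not tested. Triose phosphate isomerase, Tpi1, was lower at each later doubling within each method, and its change of -0.42 ± 0.12 did not pass (limma adjusted p = 0.0780). Gpi1, the isomerase before phosphofructokinase, was at -0.28 ± 0.17, with -0.56 withwith rRNA depletion and 0.00 withwith poly(A) enrichment.

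Gapdh (chromosome 6, 125161715 to 125166467 on mm10, GENCODE M21, protein-coding) is often used as a reference gene because it is taken to be steady. Its TPM were 613, 451 and 284 with rRNA depletion. With poly(A) enrichment they were 798, 632 and 499. Every PD14 library lay below every PD2 library, and Gapdh fell by 0.89 ± 0.16 on the log2 scale (SE, n = 2 libraries per group; limma adjusted p = 0.0333). The change was -1.11 withwith rRNA depletion and -0.68 withwith poly(A) enrichment. The mouse genome holds many processed pseudogenes of Gapdh, and 68 of its exon bases lie opposite an exon of Iffo1, so reads may be divided. Over all alternative settings and left-out libraries its change ranged from -1.08 to -0.70.

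The remaining enzymes on the way to pyruvate were lower at PD14 withwith rRNA depletion, while the poly(A) libraries differed by enzyme. Eno1, the enolase of most tissues, had 707, 567 and 422 TPM with rRNA depletion and 1507, 1417 and 1110.2 TPM with poly(A) enrichment. Its change was -0.59 ± 0.15 (limma adjusted p = 0.0637), and it passed at -0.63 once TPM were rescaled without mitochondrially encoded genes (limma adjusted p = 0.0490). Pkm, pyruvate kinase, was the most abundant member in each of the 6 libraries, with 1261, 923 and 582 TPM with rRNA depletion and 2176, 2402 and 2053 TPM with poly(A) enrichment. The Pkm change of -0.60 ± 0.27 did not pass (limma adjusted p = 0.198), and it was -1.11 withwith rRNA depletion and -0.08 withwith poly(A) enrichment. Over all alternative settings and left-out libraries the Pkm change ranged from -1.004 to -0.193. Pgk1 and Pgam1, the phosphoglycerate kinase and mutase, were lower at PD14 withwith rRNA depletion (-0.83 and -0.68) and at 0.01 and 0.10 withwith poly(A) enrichment. Eno2, the enolase best known from neurons, lay between 36.6 and 44.8 TPM in all libraries. Its share of the Eno1 and Eno2 TPM was 5.64%, 6.68% and 8.95% with rRNA depletion and 2.37%, 3.01% and 3.88% with poly(A) enrichment, higher at each later doubling within each method.

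**Figure D3:**
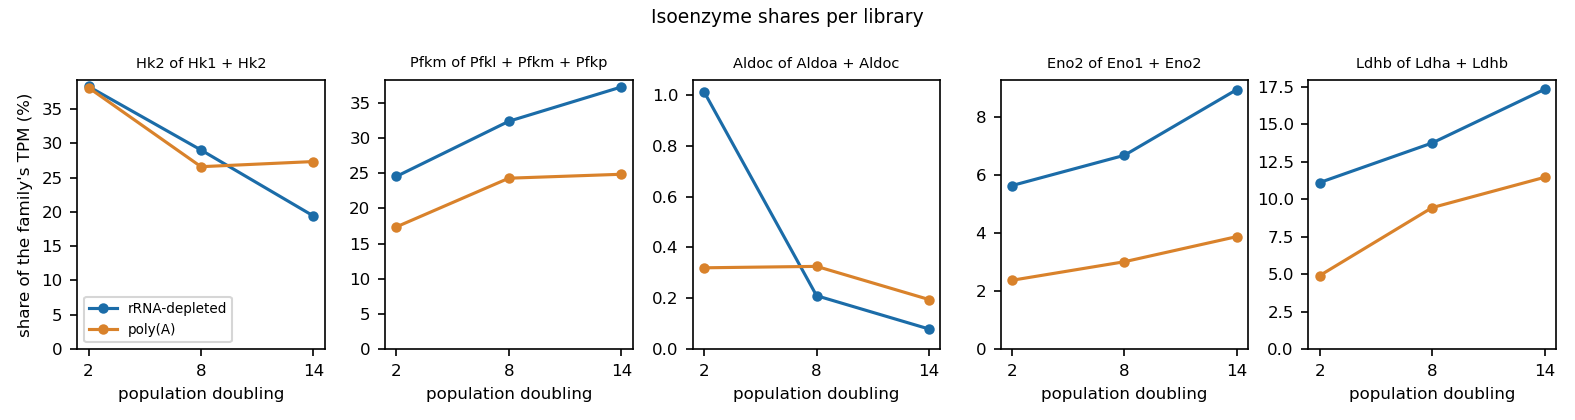
Share of 1 isoenzyme in the summed TPM of its family, in each library, against population doubling, with 1 line per library method. The shares of Pfkm, Eno2 and Ldhb were higher at PD14 than at PD2 in both methods, and those of Hk2 and Aldoc lower.

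At the branch between lactate and mitochondria, the lactate dehydrogenase genes differed. Ldha, whose subunit favours making lactate, had 528, 498 and 371 TPM with rRNA depletion and 1069, 955 and 921 TPM with poly(A) enrichment (-0.36 ± 0.15; limma adjusted p = 0.174). Ldhb, whose subunit is typical of tissues that use lactate, had 66.0, 79.4 and 77.8 TPM and 55.1, 99.5 and 119 TPM. All PD14 values of Ldhb lay above those of PD2, and its change of 0.67 ± 0.22 did not pass (limma adjusted p = 0.114). The range of the Ldhb change over all alternatives and left-out libraries was 0.307 to 1.027. The ratio of Ldha to Ldhb was 8.00, 6.27 and 4.77 with rRNA depletion and 19.4, 9.60 and 7.73 with poly(A) enrichment, lower at each later doubling within each method.

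Slc16a3 encodes the transporter that exports lactate from glycolytic cells. Its TPM were 27.7, 15.1 and 10.4 with rRNA depletion and 43.5, 65.0 and 46.4 with poly(A) enrichment, so its change was -1.34 in the former and 0.09 in the latter (fitted -0.62 ± 0.38; limma adjusted p = 0.316). Pdk1, a kinase that switches pyruvate dehydrogenase off, had 21.5, 22.7 and 40.6 TPM and 14.8, 29.4 and 25.5 TPM. Both PD14 libraries of Pdk1 were above both of PD2, without passing (0.81 ± 0.28; limma adjusted p = 0.120). Pfkfb3 and Pfkfb4 encode enzymes that set the level of a sugar phosphate that activates phosphofructokinase. Pfkfb3 was at 0.53 ± 0.17 (limma adjusted p = 0.106). Its TPM went from 16.9 to 21.5 with rRNA depletion and from 29.4 to 48.9 with poly(A) enrichment. Pfkfb4 lay between 7.54 and 8.99 TPM in all 6 libraries.

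Epas1 (chromosome 17, 86753700 to 86833410) showed the largest fitted change of log2(TPM + 1) in size of the 35 genes. With a pseudocount of 0.1 that of Aldoc was larger, at -2.4 against 1.98. The TPM of Epas1 were 6.91, 20.4 and 38.5 with rRNA depletion. With poly(A) enrichment they were 3.996, 5.06 and 11.5. Both PD14 libraries were above both PD2 libraries, and Epas1 rose by 1.82 ± 0.33 (SE, n = 2 libraries per group; limma adjusted p = 0.0353). The change was 2.32 withwith rRNA depletion and 1.32 withwith poly(A) enrichment, and over all alternatives and left-out libraries it ranged from 1.28 to 2.36. Epas1 is also strongly expressed in endothelium. The 8 endothelial markers summed to 24.1, 16.3 and 17.2 TPM with rRNA depletion and 15.7, 9.81 and 5.10 TPM with poly(A) enrichment, lower at PD14 than at PD2 in both. Erg made up 16.2 of the 24.1 TPM. Of the 4 endothelial markers tested, 1 fell (Kdr) and 0 rose. Tek was at 0.96 within the rRNA-depleted and -0.31 within the poly(A) libraries without passing. The summed TPM of the cartilage and bone markers was higher at PD14 than at PD2 in both, most of all with rRNA depletion (183 and 733 TPM). Of the 5 of them tested, Matn4 rose (2.40; limma adjusted p = 0.0449) and 0 fell. Comp was at 3.96 within the rRNA-depleted and 1.37 within the poly(A) libraries without passing. Within the poly(A) libraries 2 of the 5 were lower at PD14, Col2a1 (-0.89) and Acan (-1.41). The part of these marker lists in the Epas1 values was not tested.

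Hif1a, the other HIF alpha gene of the list, was far more abundant and did not pass. It had 363, 423 and 343 TPM with rRNA depletion and 178, 311 and 332 TPM with poly(A) enrichment, with overlapping groups (0.41 ± 0.24; limma adjusted p = 0.302). The ratio of Hif1a to Epas1 was 52.5, 20.8 and 8.92 with rRNA depletion and 44.5, 61.5 and 28.9 with poly(A) enrichment, lower at PD14 than at PD2 in both. Among the prolyl hydroxylases that mark HIF for destruction, Egln1 was at 0.32 ± 0.14 (limma adjusted p = 0.188), from 36.8 to 41.7 and from 42.6 to 58.8 TPM. Egln3, itself a HIF target, had 5.99, 3.34 and 2.58 TPM with rRNA depletion and 11.8, 5.92 and 6.22 TPM with poly(A) enrichment. Its values were lower at PD14 within each method by similar amounts (-0.97 and -0.82), and the change of -0.89 ± 0.22 missed the threshold (limma adjusted p = 0.0630).

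Of the 9 hypoxia response targets, 7 were higher at PD14 than at PD2 within both library methods, against 38.8% of all genes tested, and 1 of them passed. Glycolytic genes that HIF also raises were grouped by role with the enzymes, where 11 of 17 fitted values were below 0. Among 36 other hypoxia response genes tested, described further below, 17 were higher within both methods and 10 lower. P4ha2 (chromosome 11, 54100095 to 54131665) had 124, 196 and 199 TPM with rRNA depletion. With poly(A) enrichment it had 130.3, 318 and 322 TPM. Every PD8 and PD14 library was above every PD2 library, and P4ha2 rose by 0.99 ± 0.19 between PD2 and PD14 (SE, n = 2 libraries per group; limma adjusted p = 0.0400). Its range over all alternatives and left-out libraries was 0.674 to 1.301. P4ha1, the other catalytic subunit of collagen prolyl hydroxylase, was at 0.45 ± 0.19 (limma adjusted p = 0.170), from 173 to 196 TPM with rRNA depletion and from 195 to 322 TPM with poly(A) enrichment. Among collagen genes of the fibroblast list, whose products these enzymes modify, Col3a1 rose by 1.35 ± 0.19 (limma adjusted p = 0.0244). Col6a1 was at 0.60, and the more abundant Col1a1 and Col1a2 at 0.33 and 0.27, without passing (limma adjusted p = 0.0540, 0.347 and 0.437).

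Bnip3, a receptor for the removal of mitochondria, had 58.6, 72.7 and 77.0 TPM with rRNA depletion and 68.2, 127 and 127 TPM with poly(A) enrichment. Its PD14 libraries were above those of PD2, and the change of 0.64 ± 0.18 missed the threshold (limma adjusted p = 0.0786). Over all alternatives and left-out libraries the change of Bnip3 ranged from 0.369 to 0.906. Those of Pfkm and P4ha1 ranged from 0.597 to 1.102 and from 0.157 to 0.746. Bnip3 shares 504 exon bases with an antisense gene. Car9, a carbonic anhydrase at the cell surface and a widely used marker of hypoxia, was near the filter, at 2.65, 3.82 and 6.18 TPM and at 2.92, 5.76 and 5.00 TPM (0.80 ± 0.27; limma adjusted p = 0.119). Ankrd37, a HIF target of poorly known function, was at 1.01 to 2.33 TPM with rRNA depletion and 5.10 to 7.48 TPM with poly(A) enrichment (0.60 ± 0.24; limma adjusted p = 0.161). It shares 349 exon bases with Lrp2bp on the opposite strand.

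Ndrg1, a stress-responsive gene raised by hypoxia, differed in sign between the library methods. Its TPM were 39.1, 38.8 and 67.1 with rRNA depletion and 69.6, 30.0 and 25.8 with poly(A) enrichment. The difference between PD14 and PD2 was 0.76 in the former and -1.40 in the latter, so the fitted -0.32 ± 0.49 stands for neither (limma adjusted p = 0.690). Ndrg1 shares 419 exon bases with an antisense gene. Ddit4, an inhibitor of mTOR signalling, was the other target with a fitted value below 0, at -0.27 ± 0.13 (limma adjusted p = 0.214), with 63.6 and 48.5 TPM at PD2 and PD14 with rRNA depletion and 165 and 149 TPM with poly(A) enrichment. Mxi1, an antagonist of Myc, and the histone demethylase gene Kdm3a were at 0.28 ± 0.21 and 0.23 ± 0.18.

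**Figure D4:**
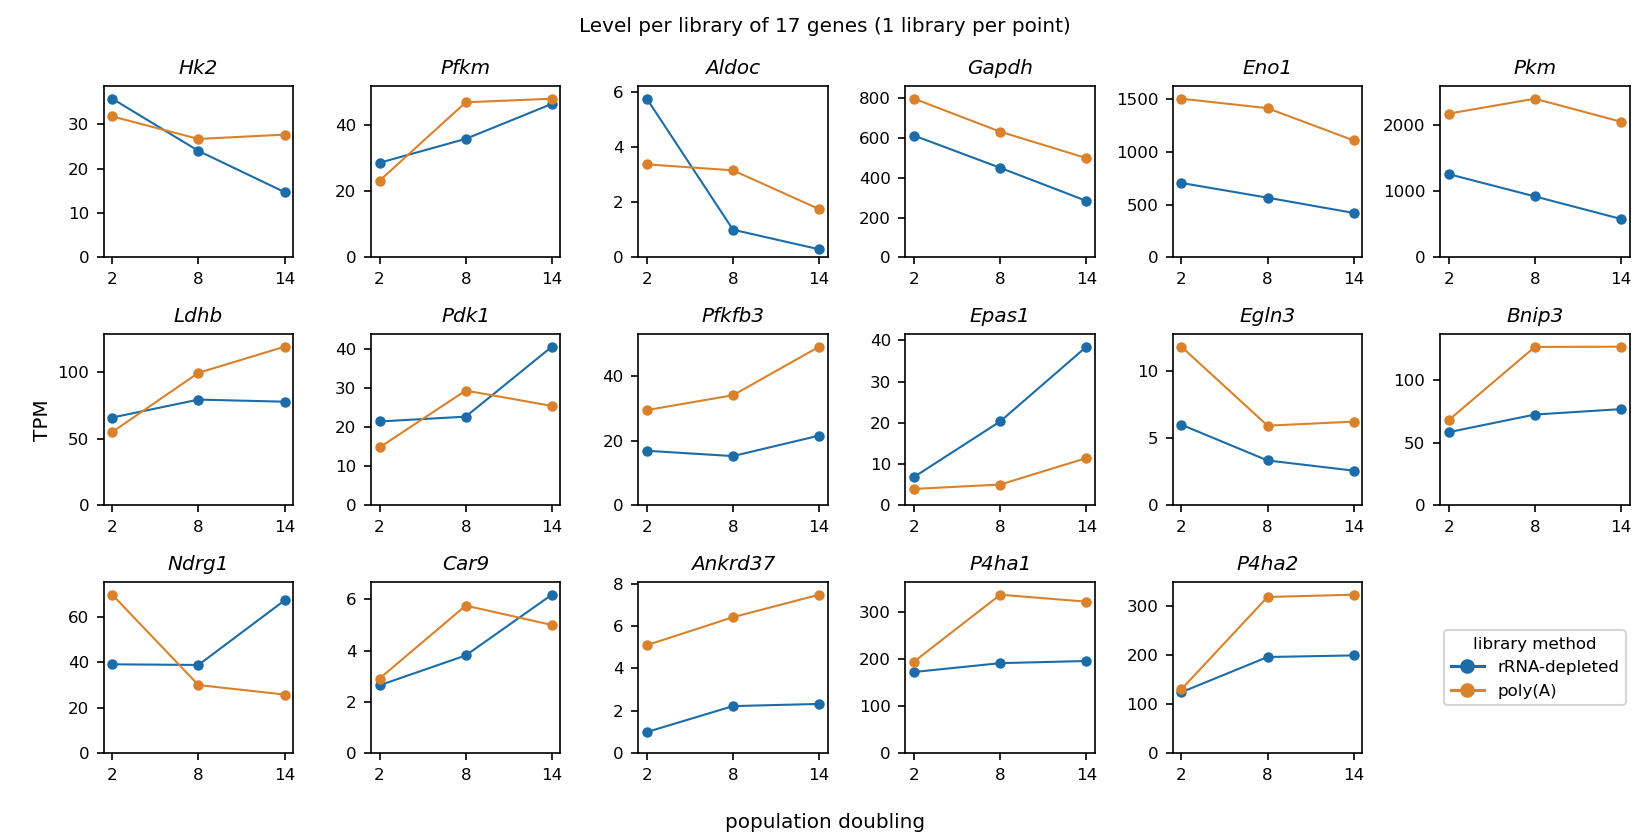
TPM of 17 members against population doubling, with 1 library per point and 1 line per library method, each panel on its own axis from 0. Gapdh and Eno1 run downward in both methods and Epas1 upward, P4ha2 and Bnip3 are higher at PD8 and PD14 than at PD2, and Ndrg1 crosses.

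The passage steps were then compared separately. At PD8 against PD2, 0 of the 35 members passed in limma, where 0.0225% of all genes did, and 5 members had an unadjusted p under 0.05 (20.3% of all genes). The smallest adjusted p was that of P4ha2, at 0.115 with a change of 0.97 ± 0.19. Groups did not overlap for 7 members higher (19.5% of all genes) and 4 lower (13.7%), the latter Hk2, Aldoc, Egln3 and Ndrg1. At PD14 against PD8, 0 members and 0 of all genes passed in limma, and 4 members had an unadjusted p under 0.05 (5.6% of all genes). There 0 members were higher without overlap (8.12% of all genes) and 1, Pfkfb4, was lower (7.07%). Of the members that passed over the whole span, Epas1 was at 0.86 ± 0.33 in the early and 0.96 ± 0.33 in the late step, and Gapdh at -0.39 ± 0.16 and -0.50 ± 0.16. P4ha2 was at 0.97 ± 0.19 in the early and 0.02 ± 0.19 in the late step, an order that the test of the difference between the steps did not call (unadjusted p = 0.0349, limma adjusted p = 1). In that test 0 members passed and 1, P4ha2, had an unadjusted p under 0.05 in limma (4.25% of all genes). The F test over the 3 groups called 0 members in limma (1.46% of all genes) and 9 at an unadjusted p under 0.05 (24.2%).

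Other genes of glucose use were described from lists that the members do not belong to. Beside their counts, 11.2% of all genes tested passed from PD2 to PD14 in limma (6.41% higher and 4.77% lower). Of 23 tested genes of glucose transport and glycolysis, 2 rose and 2 fell from PD2 to PD14, with a median of -0.03. Eno3, the enolase of muscle, fell by 1.58 ± 0.22 and the transporter gene Slc2a3 by 1.18 ± 0.23. The pyruvate and lactate transporter gene Slc16a7 rose by 1.20 ± 0.25 and the intracellular glucose transporter gene Slc2a8 by 0.89 ± 0.20 (limma adjusted p from 0.0244 to 0.0494 for the 4). Beside Eno3, the 9 muscle markers summed to 50.3, 12.6 and 5.50 TPM with rRNA depletion and 109, 33.0 and 12.5 TPM with poly(A) enrichment. Of the 5 of them tested, 4 fell, and their part in the value of Eno3 was not tested.

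Downstream of the members lie the genes that steer pyruvate. Of 28 tested genes from pyruvate entry to the citric acid cycle, 4 rose and 2 fell (6.41% and 4.77% of all genes), with a median of -0.07. Pdk4 and Pdk2, which like Pdk1 inhibit pyruvate dehydrogenase, rose by 1.57 ± 0.26 and 1.29 ± 0.17 (limma adjusted p = 0.0307 and 0.0221). Pcx, pyruvate carboxylase, rose by 1.296 ± 0.24 (limma adjusted p = 0.0360), and Mpc2, a subunit of the mitochondrial pyruvate carrier, by 0.55 ± 0.12 (0.0481). Citrate synthase, Cs, and the isocitrate dehydrogenase subunit Idh3a fell by 0.66 ± 0.14 and 0.78 ± 0.13 (limma adjusted p = 0.0489 and 0.0312). Of 10 genes of the pentose phosphate pathway, H6pd and Prps2 rose, by 0.94 ± 0.17 and 0.66 ± 0.14, and 0 fell in limma. At an unadjusted p under 0.05, 3 of the 10 had a negative and 3 a positive value, where 32% of all genes passed.

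Of 36 other hypoxia response genes tested, 3 rose and 2 fell (6.41% and 4.77% of all genes), with a median of 0.15. Ppp1r3c, which targets a phosphatase to glycogen, rose by 2.723 ± 0.34, Adm, the vessel-dilating peptide adrenomedullin, by 1.77 ± 0.21 and the nuclear receptor gene Rora by 1.135 ± 0.15. Adm had 52.9, 173 and 162 TPM with rRNA depletion and 39.5, 94.2 and 154 TPM with poly(A) enrichment. The transferrin receptor gene Tfrc fell by 2.22 ± 0.15 and the stanniocalcin gene Stc2 by 1.60 ± 0.34 (limma adjusted p from 0.0125 to 0.0460 for the 5). Vegfa, the best known HIF target, lay between 58.8 and 100.5 TPM with a fitted change of -0.005 (limma adjusted p = 0.989), and it was chosen for mention after its values were seen.

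Of 15 other genes of the HIF pathway, 0 passed in limma, where 11.2% of all genes did. An unadjusted p under 0.05 was found for 5 (32% of all genes), all 5 with negative values. The 2 largest changes were those of the chaperone gene Hsp90aa1 (-0.88 ± 0.22; limma adjusted p = 0.0626) and Hif3a (0.74 ± 0.48; limma adjusted p = 0.342). Hif3a was at 1.66 within the rRNA-depleted and -0.18 within the poly(A) libraries, where it was listed at 0 at PD14, so its fitted value stands for neither. Of 17 regulators of the glucose programme 2 rose and 0 fell in limma (6.41% and 4.77% of all genes). At an unadjusted p under 0.05, 4 of the 17 had a negative and 3 a positive value, where 32% of all genes passed. Arrdc4, an arrestin that answers to glucose, rose by 1.52 ± 0.31, and Esrra, a nuclear receptor of energy metabolism, by 0.77 ± 0.16 (limma adjusted p = 0.0425 and 0.0430).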

How the data were processed

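The authors deposited TPM per gene symbol for 6 libraries, 1 table in all. The submitters' processing notes name bcl2fastq, cutadapt 1.14, HISAT2 2.0.5, StringTie 1.3.1c and mm10; the role of each and the annotation are not given in the sources used here, nor whether strand was used in counting. TPM were analysed as log2(TPM + 1), which understates changes of low genes, in R 4.3.3 with limma 3.58.1. Genes reaching 1 TPM in 2 or more libraries were tested. The model had a term per group, library method as a replicate block and a mean-variance trend, with 2 residual and 3.22 prior degrees of freedom. Contrasts were the whole span from PD2 to PD14, its early and late steps either side of PD8, the late step minus the early one and an F test, adjusted over 13332 genes. The labels say that the replicate number marks the library method, and deviations of same-numbered libraries from their group means correlated at 0.664 to 0.854 across genes. The script was tested on simulated data. Members and gene lists were chosen with earlier results of these data known. Full values are given for members past the threshold, then for those with the largest change of the same sign in both methods up to 16 in all, and for any with opposite signs of at least 0.5; from other lists up to 5 genes by size. Exon overlaps came from GENCODE M21, where 34 members matched 1 gene and Aldoa 2.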

Additional observations from a re-analysis of the deposited data

How the results depend on the processing

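The count of members called between PD14 and PD2 was 3 (8.57%, against 11.2% of all genes). It was 0 with no replicate block (0% of all genes), 0 with no filter on low values (2.25%) and 1 (Epas1) without a mean-variance trend (2.86%, against 7.04%). With libraries left out it ranged from 0 to 8. The count between PD8 and PD2 ranged from 0 to 3 with libraries left out, as did that of the F test, and those of PD14 against PD8 and of the step difference were 0 in every such fit in limma. The 8 (22.9%, against 13.5% of all genes) and the 3 of the early step and the F test (8.57%, against 4.81% and 6.81%) came without the rRNA-depleted library of PD2. Without the poly(A) library of PD2, 5 members passed (14.3%, against 9.72%), among them Slc16a3. Without a PD8 or PD14 library, at most 0.188% of all genes passed. The members' median log2 change ranged over left-out libraries from 0.018 to 0.29 for PD14 against PD2, from -0.15 to 0.21 for PD8 against PD2 and from -0.17 to 0.04 for PD14 against PD8. With a TPM of at least 5 required, the last was -0.046. Pseudocounts of 0.1 and 0.5, the stricter filter, quantile normalization and rescaling kept the 3 calls, and the last added Eno1.

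Signs turned mostly for late-step values near 0. In PD14 against PD8 the ranges over left-out libraries were -0.20 to 0.17 for P4ha1, -0.14 to 0.18 for P4ha2, -0.24 to 0.026 for Egln3, -0.052 to 0.45 for Pfkm, -0.16 to 0.77 for Pdk1, -0.081 to 0.49 for Car9 and -0.12 to 0.21 for Bnip3. They were -0.75 to 0.13 for Hk2, -0.019 to 0.26 for Ankrd37, -0.17 to 0.40 for Ldhb and -0.50 to 1.07 for Ndrg1. P4ha1 was at 0.003 there under quantile normalization. In PD8 against PD2, Pkm ranged from -0.56 to 0.25, Ndrg1 from -1.44 to 0.23 and Pfkfb3 from -0.15 to 0.21. Pfkfb3 was at -0.005 after rescaling and at -0.039 under quantile normalization. In PD14 against PD2 Ndrg1 ranged from -1.15 to 0.52. The cause was not tested. The medians of the glycolytic enzymes and of the hypoxia response targets kept their signs under rescaling (-0.39 and 0.42) and quantile normalization (-0.39 and 0.43).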
